A study of Mus musculus with 20 samples.

Results

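The joining (J) segments of the T cell receptor α chain lie in a row on mouse chromosome 14, between the variable (TRAV) genes and the constant gene Trac. Usage of these TRAJ segments was followed in splenic follicular T cells of 10 bone marrow chimeras. All J gene names of the TRAJ family were taken from cells in which exactly 1 such name was listed. This gave 43 TRAJ genes in 30073 cells, of 33833 cells with a receptor sequence in the whole series, and 3760 cells that listed 2 TRAJ names were set aside. Of the 60 TRAJ segments in the annotation (GRCm38, GENCODE), 51 are annotated as genes and 9 as pseudogenes, and all 43 names found belonged to the 51. The number in a TRAJ name was read as its position, because the number fell with position in 59 of 59 neighbouring pairs of annotated segments. High numbers are nearest the TRAV genes and low numbers are nearest Trac.

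A developing T cell makes its α chain by joining a TRAV gene to a TRAJ segment and deleting the DNA between them. The same allele can rearrange again, joining a TRAV gene farther upstream to a TRAJ segment farther downstream, until a receptor is selected. Early joins therefore use the V-side segments and later joins move toward the constant gene. The TRAJ segment also encodes the end of CDR3, the loop of the α chain that contacts peptide.

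Recipients were C57BL/6 mice that were irradiated and given congenic marrow. In the 5 WT chimeras this marrow was used alone, and in the 5 564Igi chimeras it was mixed with marrow of 564Igi mice, whose B cells carry a knock-in receptor (heavy and light chain) that binds ribonuclear complexes of self. NP-OVA in alum was given to the WT chimeras at week 6 and not to the 564Igi chimeras, and all were analysed at week 10. The study's methods also describe an NP-OVA booster, which the labels do not name. Immunization and the 564Igi marrow cannot be told apart here. CD4+CXCR5+PD1+ spleen cells were sorted and captured in droplets for paired gene expression and receptor sequencing. The labelled sex was female for WT mice 11 and 12 and 564Igi mice 13, 21 and 34, and male for the others.

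The unit counted was the clonotype, meaning a distinct pair of CDR3 amino acid sequences counted once per mouse. There were 13650 clonotypes with 1 TRAJ name, 820 to 2087 per mouse, from 1860 to 4215 cells per mouse. WT chimeras held 7824 of these and 564Igi chimeras 5826. Tests between conditions used 1 value per mouse, so their p-values measure the spread between animals. Tests within mice used the difference in each mouse or, for gene shares, 1 value per class with mouse as a block. Their p-values measure how far the within-mouse difference varied between animals. Cells were in the expression table for 18848 of the 30073, with a median of 2735 to 4363 UMIs per cell in a mouse. By the authors' clusters, 7728 of these were follicular regulatory T (Tfr) cells and 11120 were follicular helper T (Tfh) cells. Foxp3, the transcription factor that defines regulatory T cells, had a corrected count above 0 in 55.4% of Tfr cells and 6.46% of Tfh cells, and the clusters were built from these expression data. Il21, the cytokine of helper cells, was above 0 in 5.98% and 21.6%, whereas Bcl6, the transcription factor of the follicular programme, was at 9.85% and 11.8%. The other genes of the Tfr list were also higher in Tfr than in Tfh cells, Ikzf2 at 90.8% and 63.0%, Ctla4 at 60.4% and 35.2% and Il2ra at 11.1% and 2.06%. Of the other genes of the Tfh list, Cxcr5 (38.4% and 43.7%) and Pdcd1 (74.5% and 77.2%) were close in Tfr and Tfh cells and Icos was higher in Tfr cells (70.8% and 61.6%). The B cell genes Cd79a and Ms4a1 were above 0 in at most 0.290% of either class, and Cd8b1, a chain of the CD8 co-receptor, in 5.67% of Tfr and 3.72% of Tfh cells. For 685 barcode sequences (1381 cells) that occurred in more than 1 library, 0 had the same CDR3 pair in different libraries.

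The segments on which the results below turn are shown first, on the + strand of GRCm38 chromosome 14, with the codons for phenylalanine or tryptophan, glycine, any residue and glycine in capitals. These codons mark the end of CDR3. TRAJ50 and TRAJ48 are V-side segments, TRAJ34 and TRAJ4 lie farther downstream, TRAJ31 and TRAJ39 are the segments that differed with clone size, TRAJ26 had the lowest p between Tfr and Tfh cells, TRAJ22 was the most used, and TRAJ25 is an annotated gene that no cell named.
TRAJ50 (chr14:54167590-54167652): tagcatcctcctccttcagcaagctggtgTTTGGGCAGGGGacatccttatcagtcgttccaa
TRAJ48 (chr14:54169808-54169868): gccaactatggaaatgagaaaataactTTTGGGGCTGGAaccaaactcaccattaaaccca
TRAJ39 (chr14:54179962-54180024): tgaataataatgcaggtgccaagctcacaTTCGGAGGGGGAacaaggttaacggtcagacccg
TRAJ34 (chr14:54184699-54184756): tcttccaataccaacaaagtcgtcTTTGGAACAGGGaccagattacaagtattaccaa
TRAJ31 (chr14:54187895-54187951): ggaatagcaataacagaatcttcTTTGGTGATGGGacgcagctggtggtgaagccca
TRAJ26 (chr14:54194490-54194549): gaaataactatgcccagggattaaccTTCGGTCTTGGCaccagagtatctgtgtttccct
TRAJ25 (chr14:54194815-54194871): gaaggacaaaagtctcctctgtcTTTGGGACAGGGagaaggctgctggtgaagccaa
TRAJ22 (chr14:54197248-54197307): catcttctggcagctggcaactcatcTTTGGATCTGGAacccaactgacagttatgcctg
TRAJ4 (chr14:54216291-54216353): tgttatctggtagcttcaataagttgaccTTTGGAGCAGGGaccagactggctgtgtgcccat

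Upstream of each segment lies the recombination signal that the RAG enzymes cut. It holds a nonamer, a 12-base spacer and a heptamer that ends just before the segment's first base. The reference motifs searched on the + strand were GGTTTTTGT and CACTGTG at that fixed spacing. The signals of TRAJ34, TRAJ22, TRAJ31 and TRAJ25 are given because they differ in these letters, with nonamer and heptamer in capitals.
TRAJ34 signal: GGTTTTTGTagaacatgatatCACTGTG
TRAJ31 signal: GGTTTCAGTaaaggcaagagaTGATGTG
TRAJ25 signal: TGGTTTTGAtgttgagacaagCACTGTA
TRAJ22 signal: GGTTCTTGTtgttgagcaaatCACAGTG
The heptamer CACTGTG was held by 13 of the 43 segments found (30.2%) and by 15 of all 60 annotated segments (25%). The last 3 bases of the heptamer, GTG, stood next to 42 of the 43 segments found, and TRAJ48 was the exception. Its annotation appears to start 1 base early, because the bases before it and its first base G together read CACTGTG. TRAJ48 is therefore not counted among the segments with that heptamer, and its sequence above begins with that G. Of the 8 annotated genes that no cell named, 4 had GTG next to the segment, 4 held a stop codon and 1, TRAJ25, held the codons shown in capitals above. No assembled contig held any of these 8 segments or any of the 9 pseudogenes. The receptor table holds only full-length productive chains, so this search could not show whether segments that give no productive chain are joined. Among the 43 found, 41 encoded phenylalanine or tryptophan at the first of the capital codons and 2, TRAJ44 and TRAJ7, encoded leucine there. The assembled contigs held the named segment in 96.5% of cells, by the 24 bases that end 4 bases before the segment's end.

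Usage was uneven along the locus, and TRAJ22 and TRAJ31 led in both kinds of chimera. TRAJ22 took a mean of 5.27% of clonotypes per mouse (lowest 3.94%, highest 6.87%) and TRAJ31 took 5.19% (3.62% to 6.22%). TRAJ40 (4.36%), TRAJ37 (4.35%), TRAJ23 (4.07%), TRAJ21 (3.88%), TRAJ34 (3.85%), TRAJ12 (3.53%), TRAJ42 (3.51%) and TRAJ30 (3.49%) followed, and neighbours in this order lay within the spread between mice. These 10 segments took 41.5% of clonotypes, where an equal share for each of the 43 would be 2.33%. TRAJ35 was least used at 0.436%, which is 12.1 times below TRAJ22, and was the only segment missing from a mouse (WT mouse 36). The 10 least used segments took 7.61% of clonotypes, 8 segments were under 1% and 13 were over 3%.

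The most used segments and the least used, TRAJ35, were not at the ends of the locus. At the Trac end, however, TRAJ2 and TRAJ5 were among the 10 least used. At the V side TRAJ58 took 1.23%, TRAJ57 2.60% and TRAJ56 2.34% of clonotypes, and at the Trac side TRAJ5 took 0.646%, TRAJ4 1.34% and TRAJ2 0.617%. Over the 43 genes, number and mean share had a Spearman rho of 0.148, and mean shares in WT and 564Igi chimeras had a Pearson r of 0.913, both as descriptions. Segments with the heptamer CACTGTG had a mean share of 2.49% (0.436% to 4.36%) and the 29 with another heptamer, TRAJ48 left out, 2.26% (0.580% to 5.27%). Both the least used segment, TRAJ35, and TRAJ34 held the CACTGTG heptamer. The number of heptamer letters matched had a rho of 0.194 with the share and that of nonamer letters 0.0816, so the letters at these positions ordered the segments only weakly.

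**Figure D1:**
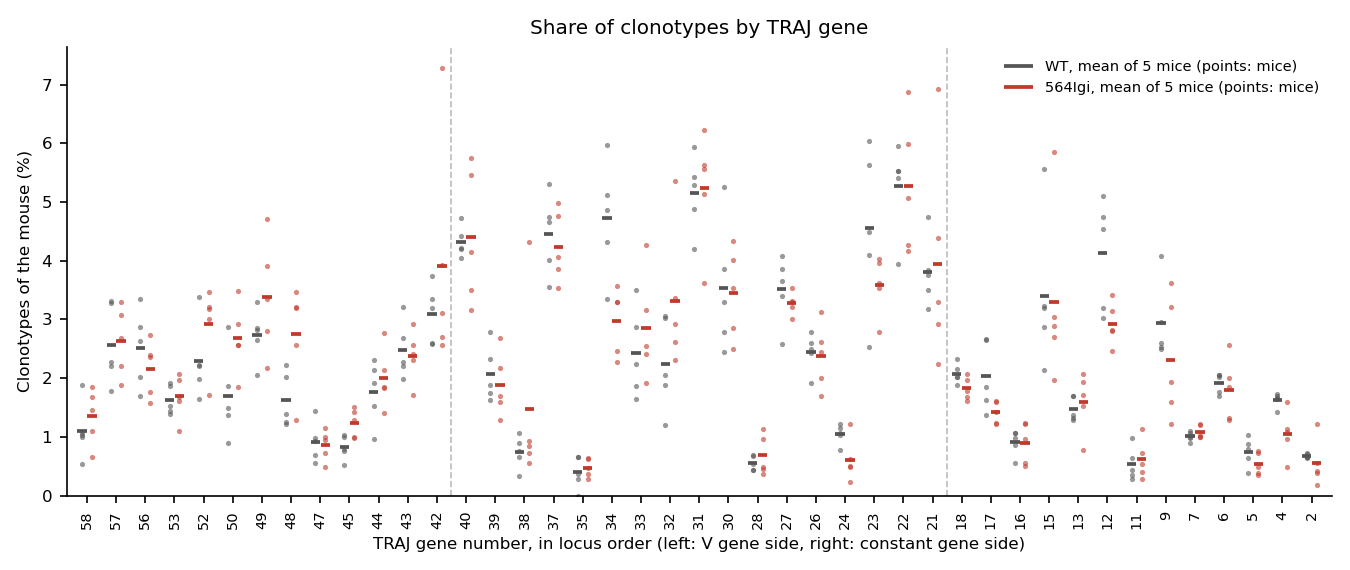
Share of clonotypes (percent) taken by each of the 43 TRAJ genes, from the V side (left) to the constant gene side (right), with a point for each mouse and a line at the mean of the 5 WT and of the 5 564Igi mice. TRAJ22 and TRAJ31 are highest, TRAJ35 is lowest, and the profiles of both conditions largely rise and fall at the same segments (r of 0.913 over 43 genes).

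TRAJ18 and TRAJ33 are the segments used by the semi-invariant receptors of natural killer T cells (with TRAV11) and mucosal-associated invariant T cells (with TRAV1). TRAJ18 took 1.95% of clonotypes (268 in all) and TRAJ33 took 2.64% (352 in all). Only 1 cell joined TRAV11 to TRAJ18, 0 joined TRAV11D to TRAJ18, and 0 joined TRAV1 to TRAJ33, so the pairs that define these receptors were found in at most 1 cell. Zbtb16, the transcription factor of such cells, was above 0 in 0.0297% of Tfr cells and 0.0389% of Tfh cells. Of the other genes on the same marker list, Klrb1c was above 0 in 5.56% and 2.48%, and Cd160 in 10.0% and 11.4%.

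TRAJ number followed the position of the TRAV gene in each of the 10 mice. The 90 TRAV genes found, all matched to the annotation, were put in 3 groups of 30 by position. Clonotypes that used the 30 TRAV genes nearest the TRAJ segments had a mean TRAJ number of 37.8 ± 0.774 (SD, n = 5) in WT and 39.5 ± 0.454 in 564Igi chimeras. With the 30 farthest TRAV genes the mean was 25.7 ± 0.715 and 26.1 ± 0.914, and with the 30 between them 25.4 ± 1.37 and 26.8 ± 0.614. The near group exceeded the far group by 12.7 in TRAJ number (10.3 to 15.1 per mouse), in 10 of 10 mice (exact sign-flip permutation test, two-sided, p = 0.00195, the smallest it can give).

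The same pattern showed in the shares. Clonotypes with near TRAV genes used TRAJ41 or above in 45.3% ± 3.58 of cases and TRAJ20 or below in 8.19% ± 1.89 (SD over 10 mice). With far TRAV genes these values were 15.5% ± 2.47 and 33.2% ± 2.74, and with the middle group 13.9% ± 2.88 and 30.6% ± 4.95. The middle and far groups had overlapping ranges of the mean number. In the near group the WT mice lay between 36.84 and 38.60 and the 564Igi mice between 38.92 and 40.10, without overlap. The conditions overlapped in the far group (WT 24.65 to 26.58, 564Igi 24.575 to 26.98). They also overlapped in the middle group (WT 23.21 to 26.67, 564Igi 26.09 to 27.46). These contrasts were not tested by themselves. Over the 70 TRAV genes with at least 50 clonotypes, the order along the locus and the mean TRAJ number had a Spearman rho of 0.729. The highest means were those of TRAV21-DV12 (50.7), TRAV19 (47.7) and TRAV17 (46.6), the lowest those of TRAV5-1 (20.4) and TRAV1 (21.4). TRAV genes of the duplicated D and N blocks are near-identical copies, so their assignment is less certain. When the groups were redrawn by position among names without D or N, the redrawn near group exceeded the redrawn far group by 16.2. The redrawn groups differ in their genes from the groups above, so the sizes of these differences cannot be compared directly.

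**Figure D2:**
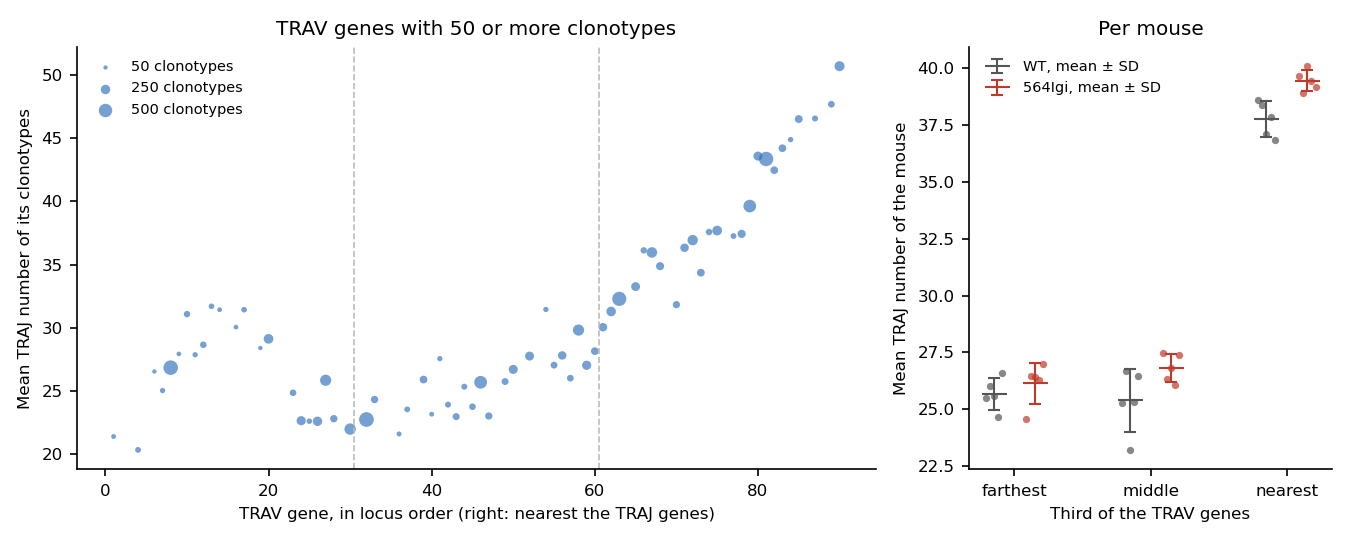
Left, mean TRAJ number of the clonotypes of each TRAV gene with at least 50 clonotypes (point size, number of clonotypes) against the order of the TRAV gene along the locus, with dashed lines between the 3 groups of 30, and right, mean TRAJ number per mouse in each group, with the mean and SD of 5 mice. The means of single TRAV genes lie between 20.4 (TRAV5-1) and 31.7 (TRAV8D-1) in the far and middle groups. They reach 50.7 (TRAV21-DV12) at the near end. The far group rises and then falls back to 22.0 (TRAV3D-3), whereas the middle group rises, with scatter, from 22.8 (TRAV4D-4) to 28.2 (TRAV9-1). The near group lies above the others in every mouse.

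The study set autoimmune 564Igi chimeras against immunized WT chimeras, and clonotypes of 564Igi chimeras used segments of higher number, that is, nearer the V genes. The mean TRAJ number was 30.98, 31.52, 29.19, 30.17 and 30.93 in WT mice 11, 12, 14, 23 and 36. In 564Igi mice 13, 17, 21, 24 and 34 it was 31.89, 32.22, 32.98, 31.54 and 32.24. All 5 564Igi mice lay above all 5 WT mice, although WT mouse 12 and 564Igi mouse 24 were nearly level. The means were 30.6 ± 0.903 and 32.2 ± 0.534 (SD, n = 5 each), a difference of 1.61 (exact permutation test, two-sided, p = 0.00794, the smallest that 5 against 5 can give).

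The difference was 1.31 with each α chain counted once per mouse (exact p = 0.00794) and 1.20 with the 3 TRAV groups weighted equally (exact p = 0.00794). When condition labels were reassigned only within recipient sex the exact p was 0.01, and without mice 34 and 36, whose libraries are numbered apart from the rest, the difference was 1.69 (exact p = 0.0286). When every cell was counted, so that large clones weighed more, it was 1.72 but the groups overlapped and the call was lost (exact p = 0.119).

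**Figure D3:**
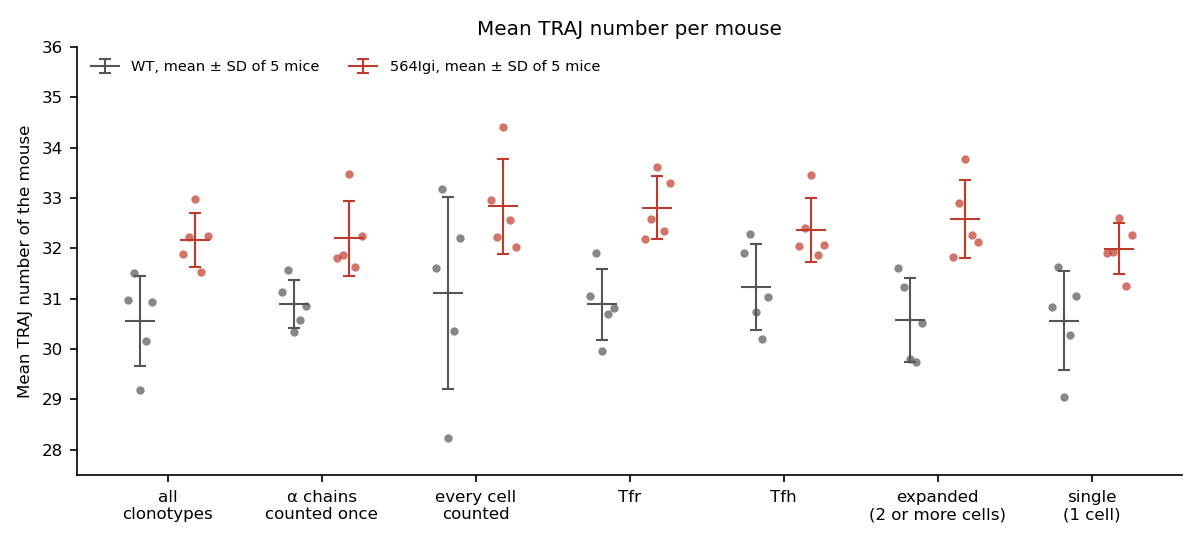
Mean TRAJ number in each mouse (points), with the mean and SD of the 5 WT and 5 564Igi mice, for all clonotypes, for α chains counted once, for every cell, and within Tfr, Tfh, expanded and single-cell clonotypes. The vertical axis does not start at 0. Over all clonotypes the WT mice lie between 29.19 and 31.52 and the 564Igi mice between 31.54 and 32.98, and the spread is widest, with overlap, when every cell is counted.

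The shift was seen at both ends of the locus. TRAJ41 and above, 13 genes, took 26.3%, 27.3%, 22.3%, 23.7% and 26.6% of clonotypes in the WT mice (in the order above) and 28.5%, 32.2%, 33.1%, 27.1% and 29.0% in the 564Igi mice. The groups overlapped only in WT mouse 12 and 564Igi mouse 24, and the means of 25.2% ± 2.11 and 30.0% ± 2.55 differed by 4.72 points (exact permutation test, adjusted p = 0.0238 over the 3 parts of the locus). TRAJ20 and below, also 13 genes, took 23.6%, 21.9%, 26.5%, 23.5% and 21.9% in WT and 20.7%, 18.05%, 21.5%, 20.9% and 18.6% in 564Igi mice, with no overlap. This share was 23.5% ± 1.88 and 19.96% ± 1.52, lower by 3.53 points in 564Igi (adjusted p = 0.0238, exact permutation test). For the 17 genes from TRAJ21 to TRAJ40 the difference was -1.19 points (exact p = 0.5). Both calls were lost when every cell was counted, with differences of 5.50 points (adjusted exact p = 0.143) and -2.67 points (adjusted exact p = 0.238).

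No single TRAJ gene carried this difference past the test. By limma on the log2 share, 0 of 43 genes were called at an adjusted p under 0.05 (0% of those tested). By the same fit 8 had an unadjusted p under 0.05 (18.6%). An exact test per gene called 0, but its smallest p is 0.00794, so adjusted over 43 genes none could have passed alone. For 0 genes were the 5 WT and 5 564Igi mice without overlap. Of the 13 genes at TRAJ41 and above, 10 had a higher mean log2 share in 564Igi mice, with a median difference of 0.24. At TRAJ20 and below 3 of 13 were higher (median -0.18), from TRAJ21 to TRAJ40 6 of 17 (median -0.02), and over all 43 genes 19 were higher (median -0.02).

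The 5 lowest adjusted p were equal at 0.141 (limma). TRAJ34, in the middle of the locus, took 4.33%, 4.86%, 5.13%, 3.34% and 5.98% of clonotypes in WT mice and 3.29%, 2.28%, 2.47%, 3.29% and 3.58% in 564Igi mice. Only WT mouse 23 and 564Igi mouse 34 broke the separation, and the log2 difference was -0.65 (SE 0.20). TRAJ4, close to Trac, took 1.42% to 1.72% in WT and 0.488% to 1.60% in 564Igi mice, a log2 difference of -0.69 (SE 0.24). TRAJ24 took 1.04%, 0.773%, 1.15%, 1.22% and 1.07% in WT and 0.241%, 0.499%, 0.617%, 0.488% and 1.22% in 564Igi mice, where mouse 34 stood with the WT mice (log2 difference -0.88, SE 0.34).

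On the V side, TRAJ48 and TRAJ50 had higher means in 564Igi mice. TRAJ48 took 1.26%, 1.21%, 1.39%, 2.02% and 2.23% in WT and 1.29%, 3.21%, 3.47%, 2.56% and 3.20% in 564Igi mice, so 4 of the 5 564Igi mice lay above all WT mice (log2 difference 0.71, SE 0.27). TRAJ50 took 1.86%, 2.87%, 1.49%, 1.38% and 0.892% in WT and 2.57%, 1.85%, 2.93%, 2.56% and 3.48% in 564Igi mice (0.72, SE 0.27). Calls appeared when a 564Igi mouse was left out: without mouse 13 TRAJ48 was called (limma adjusted p = 0.0354), and without mouse 34 TRAJ4, TRAJ24 and TRAJ34 were called (lowest adjusted p = 0.036). TRAJ45 (log2 difference 0.59, adjusted p = 0.156), TRAJ32 (0.57, adjusted p = 0.263), TRAJ12 (-0.47, adjusted p = 0.198) and TRAJ17 (-0.47, adjusted p = 0.223) did not pass.

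**Figure D4:**
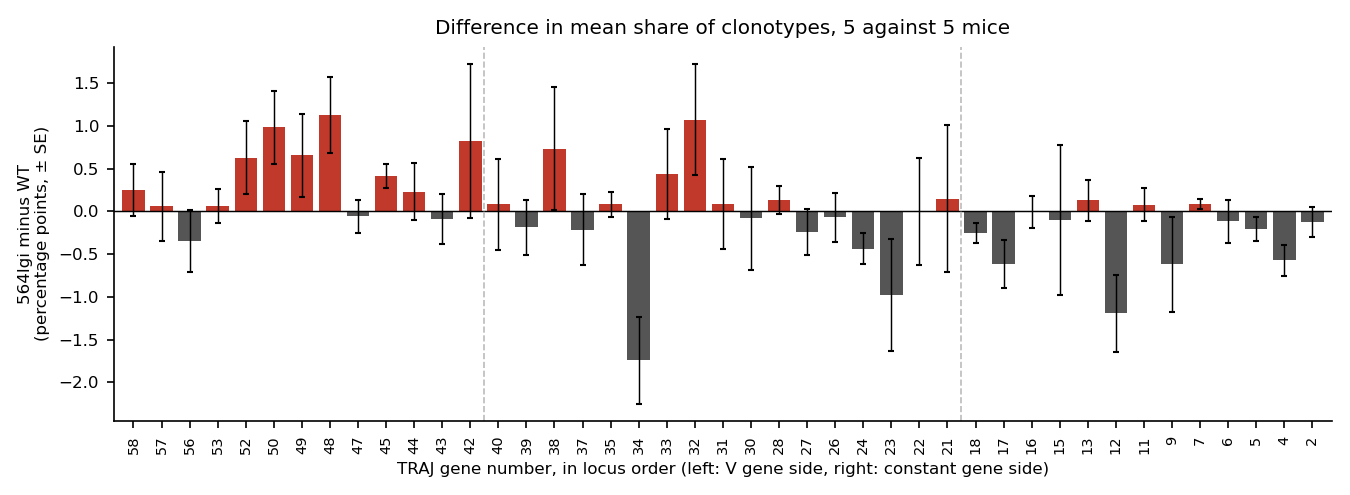
Difference in mean share of clonotypes (564Igi minus WT, in percentage points, with its SE from 5 against 5 mice) for each TRAJ gene in locus order, with dashed lines between the 3 parts of the locus. The bars lie over 0 for 10 of 13 genes at TRAJ41 and above and under 0 for 10 of 13 at TRAJ20 and below, and the longest bar is that of TRAJ34, at -1.74 points.

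Some shares within a mouse rested on 1 α chain found with many β chains. In 564Igi mouse 21 an α chain that joined TRAV14-2 to TRAJ38 was found in 37 clonotypes and 83 cells, and TRAJ38 took 4.32% of that mouse's clonotypes, against 0.335% to 1.06% in the other 9 mice. With each α chain counted once it took 1.68%. The segment and the CDR3 that shares it are shown with the codons as above in the segment, and with the bases taken from the segment in capitals in the CDR3.
TRAJ38 (chr14:54180574-54180635): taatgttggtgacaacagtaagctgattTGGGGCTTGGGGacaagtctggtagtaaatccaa
CDR3 of the shared TRAJ38 chain: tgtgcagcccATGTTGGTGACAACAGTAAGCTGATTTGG
Likewise in mouse 21 a TRAV8-1 to TRAJ15 chain was found in 25 clonotypes, and TRAJ15 took 5.86% of clonotypes, or 3.46% with α chains counted once. In 564Igi mouse 17 a pair of TRAV6-7-DV9 to TRAJ42 chains was found in 18 and 16 clonotypes, and TRAJ42 took 7.28%, or 4.35% with α chains counted once. α chains in 5 or more clonotypes were most frequent in WT mouse 14, with 61 such chains in 463 of its 2087 clonotypes. WT mouse 14 and 564Igi mouse 21 also had the lowest and the highest mean TRAJ number. Without both of these mice the difference between conditions was 1.07 (exact permutation test, p = 0.0286). How such sharing arose was not tested.

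Tfr and Tfh cells of the same mouse differed in mean TRAJ number by less than the spread between mice. A clonotype found in both classes of a mouse was counted in each, which held for 702 clonotype and mouse pairs. Leaving these out did not bring the difference between the classes past the threshold. The mean TRAJ number was higher in Tfr than in Tfh clonotypes in 6 of 10 mice, by 0.0474 on average (exact sign-flip permutation test, two-sided, p = 0.816). In 564Igi mice the difference was 0.13, 0.17, 0.17, 0.47 and 1.24, and in WT mice it was -0.84, -0.38, -0.76, 0.51 and -0.23. The difference between the conditions was 0.777 (exact permutation test, p = 0.0397). It passed under 2 of 16 alternatives and was -0.614 (exact p = 0.611) when every cell was counted, so it depended on how receptors were counted.

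Among genes, limma called 0 of 33 tested between Tfr and Tfh cells (0%), with 3 at an unadjusted p under 0.05 (9.09%). An exact test per gene called 0, but its smallest p is 0.00195, so adjusted over 33 genes none could have passed alone. TRAJ26 had the lowest p. It took 3.01% ± 0.734 of Tfr and 1.91% ± 0.494 of Tfh clonotypes (SD, n = 10) and was higher in Tfr cells in 9 of 10 mice, a log2 difference of 0.62 (SE 0.18, limma adjusted p = 0.109), and without 564Igi mouse 34 it was called (adjusted p = 0.0187). TRAJ52 (-0.42) and TRAJ27 (-0.33) had the lowest p in the other direction (limma adjusted p = 0.447 for both).

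Within Tfr cells the mean TRAJ number was 31.06, 31.91, 29.97, 30.71 and 30.81 in WT mice and 32.18, 32.58, 33.62, 32.34 and 33.31 in 564Igi mice, a difference of 1.92 without overlap (exact permutation test, adjusted p = 0.0159 over 4 classes). Within Tfh cells it was 31.90, 32.30, 30.73, 30.19 and 31.04 against 32.06, 32.41, 33.45, 31.88 and 32.07, a difference of 1.14 with overlap (exact adjusted p = 0.0635). With α chains counted once the Tfh difference was 1.21 and passed (exact adjusted p = 0.0476). When every cell was counted the Tfr difference was 1.51 and did not pass (exact adjusted p = 0.214). Across the authors' 6 clusters, the mean in the activated Tfh cluster was 31.8 ± 1.12 (SD, n = 10). Sostdc1 Tfh cells differed from it by 0.0609, central memory Tfh cells by 0.782 (6 mice), effector Tfh cells by 1.69 (6 mice) and interferon-stimulated Tfh cells by -0.869 (7 mice), and none passed (exact sign-flip permutation test, adjusted p = 0.914 for each). With 6 or 7 mice the smallest unadjusted p is 0.0312 or 0.0156, so adjusted over 5 clusters none of these 3 clusters could have passed alone.

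Clone size was taken as the number of cells with a clonotype in a mouse. Clonotypes of 2 or more cells had a mean TRAJ number 0.302 above that of single-cell clonotypes, and were higher in 5 of 10 mice (exact sign-flip permutation test, p = 0.193). With every cell counted the difference was 0.959 (exact p = 0.0469). Relative to 1 cell (10268 clonotypes), the difference was 0.166 for 2 to 4 cells (2359 clonotypes), 0.385 for 5 to 10 cells (630) and 0.733 for over 10 cells (393), with an adjusted exact p of 0.656 for each. Expanded clonotypes had a mean TRAJ number of 29.75 to 31.61 in WT and 31.84 to 33.77 in 564Igi mice, without overlap. The difference between conditions was 1.999 within expanded clonotypes (exact permutation test, adjusted p = 0.0159) and 1.43 within single-cell clonotypes (adjusted p = 0.0212), and these did not differ by more than the spread between mice (0.572, exact p = 0.214). With α chains counted once the single-cell difference was 0.882 (exact adjusted p = 0.0476), and without 564Igi mouse 21 or 34 it did not pass (exact adjusted p = 0.0529). Counted by cell, neither passed, with 1.83 (exact adjusted p = 0.214) and 1.43 (exact adjusted p = 0.0635).

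In contrast to the mean number, 2 of 38 TRAJ genes tested were called between expanded and single-cell clonotypes (5.26%). TRAJ31 took 6.34% ± 0.947 of expanded clonotypes (lowest 4.82%, median 6.19%, highest 7.89%) and 4.77% ± 0.854 of single-cell clonotypes (3.06%, 4.99% and 5.88%). It was higher among expanded clonotypes in 10 of 10 mice, with a log2 difference of 0.38 (SE 0.079, limma adjusted p = 0.0044). These were 213 expanded clonotypes with 195 distinct α chains and 60 TRAV names, so the share did not rest on a few chains. TRAJ39 took 1.43% ± 0.440 of expanded (0.785%, 1.45% and 2.07%) and 2.17% ± 0.547 of single-cell clonotypes (1.42%, 1.97% and 3.04%). It was lower in 10 of 10 mice, with a log2 difference of -0.57 (SE 0.15, limma adjusted p = 0.0146), from 46 expanded and 221 single-cell clonotypes.

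Both calls held with α chains counted once, whereas neither held when every cell was counted (lowest limma adjusted p = 0.197) or without mouse as a block (adjusted p = 0.0655 for TRAJ31 and 0.125 for TRAJ39). TRAJ39 was also lost without WT mouse 23, 564Igi mouse 13 or 564Igi mouse 24, and TRAJ31 was lost in limma without a trend (adjusted p = 0.0567).

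**Figure D5:**
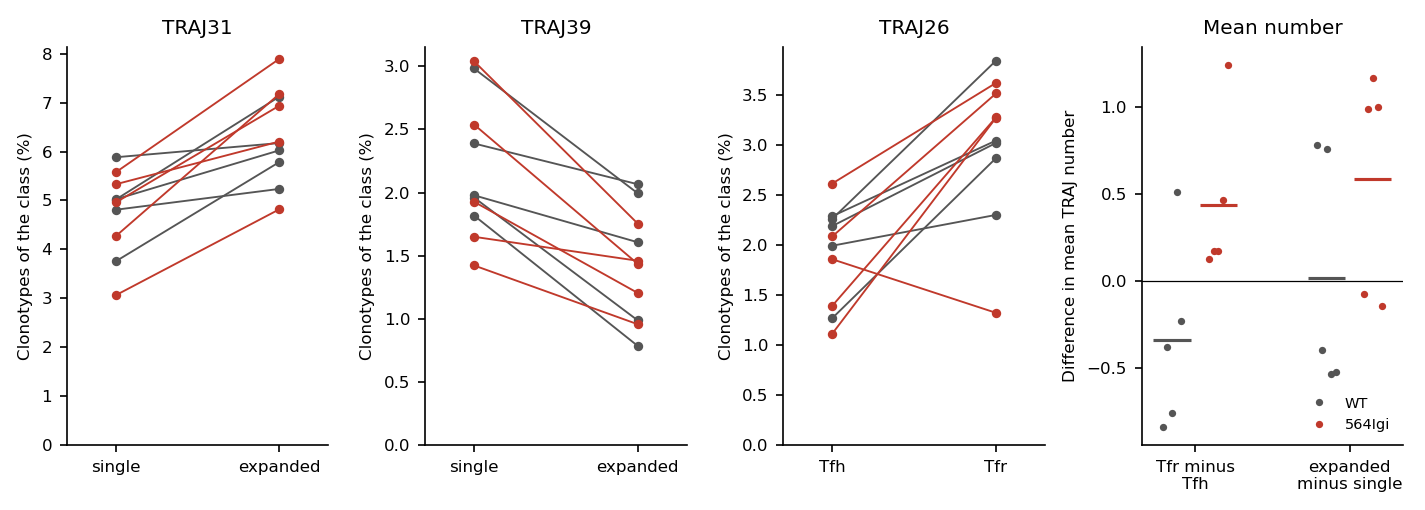
Share of clonotypes (percent) that used TRAJ31 and TRAJ39 among single-cell and expanded clonotypes and TRAJ26 among Tfh and Tfr clonotypes, with a line for each mouse, and the difference in mean TRAJ number per mouse with a bar at the mean of each condition (far right). TRAJ31 rises and TRAJ39 falls in 10 of 10 mice, TRAJ26 is higher in Tfr cells in 9 of 10, and the differences in mean number lie on both sides of 0.

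CDR3α was longer with V-side segments. Its mean length was 13.99 residues for TRAJ41 and above, 13.4 for TRAJ21 to TRAJ40 and 13.5 for TRAJ20 and below. The V-side group exceeded the group nearest Trac by 0.472 residues, in 10 of 10 mice (exact sign-flip permutation test, two-sided, p = 0.00195, the smallest it can give). Per mouse this excess was 0.292 to 0.471 residues in WT and 0.507 to 0.645 residues in 564Igi chimeras, and that contrast was not tested. The segments themselves differ in length up to and including the first capital codon. The mean over clonotypes was 31.3 bases for TRAJ41 and above and 29.5 for TRAJ20 and below. Germline segments are common to the mice, so the test over mice is not independent of these lengths.

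Over the 43 genes, these germline bases and the mean CDR3α length had a Pearson r of 0.935, as a description. The shortest loops were those of TRAJ43 (12.3 residues), TRAJ33 (12.4) and TRAJ31 (12.5), and the longest those of TRAJ2 (15.2), TRAJ28 (15.2) and TRAJ53 (14.98). The median number of germline bases trimmed from a segment was 1 to 5 over the genes, with a mean over clonotypes of 3.56 for TRAJ41 and above and 2.53 for TRAJ20 and below.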

How the data were processed

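Paired single-cell expression and receptor libraries of 10 chimeras were analysed. Per the labels, reads were processed with Cell Ranger 4.0.0 and Seurat 3.1.4 against GRCm38. The authors deposited the total UMI count and cluster name of each cell that passed their filters (genes, UMIs, mitochondrial and ribosomal share, cell cycle scores). Expression was deposited as the natural log of the sctransform-corrected count plus 1, normalized separately in each condition, and was used here only for marker genes. The deposited receptor table holds full-length productive chains by cell barcode, and each field lists at most 2 distinct entries. Here cells were joined by library and barcode, and cluster names were the authors'. No doublet caller was run, and none is named in the sources used here. Columns of unmatched samples numbered 0.

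The members and lists were chosen with earlier results of these data known. A clonotype was a CDR3α and CDR3β amino acid pair, counted once per mouse. Gene shares were fitted with limma 3.58.1 (R 4.3.3) with a trend on log2 of the percent of clonotypes after adding 0.5 clonotypes, for genes with a mean of at least 5 clonotypes per mouse (or per class and mouse), with mouse as a block between classes of the same animal and Benjamini-Hochberg adjustment over the genes tested. The block came from the animal, as the labels give it. Single values were compared by exact permutation over mice, or exact sign flips within mice (Python 3.11.15, numpy 2.4.6, pandas 2.3.3, matplotlib 3.10.9). The fits were checked on simulated data. Genes named were the 10 most used, the 3 nearest each end, TRAJ18 and TRAJ33, and those called or, where fewer than 5 were called, with the 5 lowest p in each direction, of which those the results turn on are given with values. Genes named for CDR3 length, shared α chains, missing names or sequence were chosen after their values were seen. Segment sequences were read from the GRCm38 genome with the GENCODE annotation. Precision was limited by 820 to 2087 clonotypes per mouse, and receptor read depth was not used.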

Additional observations from a re-analysis of the deposited data

Results flagged for a closer look

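Among 92 groups of 5 mice checked, 5 held a mouse set apart from the other 4 by more than Dixon's critical value (a gap of over 0.71 of the group's range), and chance marks about 1 in 20 groups. In 564Igi mouse 21, TRAJ38 took 4.32% of clonotypes (0.565% to 0.927% in the other 564Igi mice) and TRAJ15 took 5.86% (1.98% to 3.05%), and both shares were lower with α chains counted once (1.68% and 3.46%). In 564Igi mouse 17, TRAJ52 took 1.71%, against 3.01% to 3.47% in the others. In WT mouse 11, TRAJ22 took 3.94% (5.41% to 5.96% in the others) and TRAJ4 took 1.42% (1.65% to 1.72%). The difference in mean TRAJ number between Tfr and Tfh clonotypes, 564Igi against WT, was 0.777 and stood out because it was itself tested between the conditions (exact permutation test, p = 0.0397). The ranges over its alternatives are given in the next part.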

How the results depend on the processing

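Alternatives with α chains counted once, without clonotypes of shared α chains, nucleotide pairs, TRAV names without D or N, TRAV groups weighted equally or without mice 14 and 21, and every alternative within Tfr, Tfh, expanded or single-cell clonotypes, were chosen after seeing the data. The 564Igi minus WT difference in mean TRAJ number kept its direction and its call under 20 of 21 alternatives (1.07 to 1.85), and was 1.72 with every cell counted, where the call was lost. With every cell counted, the shares at TRAJ41 and above (5.50 points) and TRAJ20 and below (-2.67 points), and the differences within Tfr (1.51), expanded (1.83) and single-cell clonotypes (1.43) also lost their call, and expanded minus single gained one (0.959). The Tfr minus Tfh difference between conditions reversed there (-0.614). It lost its call with 2-name cells added (0.165), α chains counted once (0.625), labels reassigned within sex (0.777) and without mice 34 and 36 (0.603), and was 0.576 to 0.990 with 1 mouse left out (exact p = 0.00794 to 0.0952). Within Tfh cells the difference passed with α chains counted once (1.21) and ranged from 0.868 to 1.40 with 1 mouse left out, past the threshold without WT mouse 11 or 12. Within single-cell clonotypes it ranged from 1.05 to 1.69, not past the threshold without 564Igi mouse 21 or 34, and with α chains counted once it was 0.882. With 1 mouse left out, 0 to 3 genes were called between conditions, 0 to 1 between Tfr and Tfh, and 1 to 2 between expanded and single. Between expanded and single, 2 genes were called with mouse as a block, 0 with no replicate block, 0 with every cell counted and 1 in limma without a trend. The block changed no other call. TRAJ38 had a log2 difference between conditions of 0.61 (limma adjusted p = 0.618), and -0.08 with α chains counted once. The differences by TRAV position (9.86 to 16.2) and in CDR3α length (0.336 to 0.493) kept their calls under the alternatives run. The ranges 1.07 to 1.85 and 9.86 to 16.2 each include 1 alternative that used the gene's rank in place of its TRAJ number. They are therefore not in a single unit. The range by TRAV position also includes the groups redrawn among names without D or N.

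Receptor fields listed at most 2 entries, and cells with 2 TRAJ names were set aside (4.51% to 14.97% of cells per mouse, with a median gap of 10 in TRAJ number, lowest in mice 34 and 36). A cell with 1 TRAJ name can still hold a second α chain of the same TRAJ name. Genes with few clonotypes per mouse could not show small differences. The sex labelled is that given for the mouse, and the sex of donor cells is not given in the sources used here.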
